A study of Homo sapiens with 4 samples.

Results

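The genes described here encode TALE homeodomain transcription factors: the MEIS genes MEIS1, MEIS2 and MEIS3, the PBX genes PBX2, PBX3 and PBX4, the PKNOX genes PKNOX1 and PKNOX2, and TGIF1. They are 9 of the 19881 protein-coding genes examined and were chosen by name. The comparison asked whether MEIS proteins bind the genes of their own family and of their partners in human neural stem cells (hNSC). A binding site was assigned to a gene when its summit, the base of highest signal, lay in the gene body or within 250 kb of it. Under this rule, 18 of the 5169 reproducible MEIS binding sites belonged to these genes.

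Binding was measured by chromatin immunoprecipitation and sequencing (ChIP-seq) in untreated, commercially supplied hNSC grown in serum-free medium, as 2 MEIS ChIP samples and 2 Input samples of sheared chromatin. Both ChIP samples used the same mixture of antibodies against MEIS1/2A and against MEIS1, so which MEIS protein was bound could not be told from a peak. No value of an Input sample was used by itself, since Input entered only through peak calling, which scored 36796 peaks in replicate 1 and 47449 in replicate 2. Peak lists hold neither read depth nor expression, so the depth of each library was unknown, the cell type could not be checked against its marker genes, and a small share of cells strongly bound could not be told apart from weak binding in all cells.

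TALE proteins share a homeodomain with an extra stretch of amino acids in the loop before its second helix. MEIS and PKNOX (also called PREP) proteins bind PBX proteins through a conserved N-terminal domain, and the pair reads a composite motif in which a PBX recognition sequence precedes the MEIS core TGACAG. TGIF1 recognises the same core and acts as a repressor, in part as a SMAD corepressor in TGF-beta signalling, and in the developing brain it is known for its role in forebrain patterning.

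Of the 18 sites, 15 held TGACAG within the 500 bp around the summit, and its copy nearest to the summit is shown for each, because this is the sequence that the sites of different family members had in common. Bases are from the GRCh37 reference and are written 5′ to 3′ on the strand of the motif, which is in capitals. Sites are numbered within a gene by decreasing strength.
MEIS1 site 1, chr2:66467051-66467080, plus strand: tgcagttcgaacTGACAGaagcacaatacc
MEIS1 site 2, chr2:66662593-66662622, plus strand: acctcgcctgTGATTGACAGctggagtggc
MEIS1 site 3, chr2:66734998-66735027, plus strand: atctgagctctcTGACAGcctgggagctgc
MEIS2 site 1, chr15:37273975-37274004, minus strand: cagatgggatgaTGACAGctcacattgatg
MEIS2 site 2, chr15:37392132-37392161, minus strand: ttccgggcttTGATTGACAGctggagtggc
MEIS3 site 1, chr19:47660639-47660668, minus strand: tgatttataaacTGACAGcacccacaaagc
PBX3 site 1, chr9:128640866-128640895, minus strand: tcaacttgcaaaTGACAGtgtcaccaaaca
PBX4 site 1, chr19:19976536-19976565, minus strand: ccccagccgcTGAGTGACAGatgtgatcag
PBX4 site 2, chr19:19779442-19779471, minus strand: gtggggtgtgacTGACAGgtgctacccaca
PKNOX1 site 1, chr21:44198195-44198224, minus strand: aagtctgagacaTGACAGgtgacacaggag
PKNOX2 site 2, chr11:125034666-125034695, minus strand: catggaaatgaaTGACAGcttacctgatgc
PKNOX2 site 4, chr11:125321494-125321523, minus strand: gctgagatgtggTGACAGgcccagaggatc
PKNOX2 site 5, chr11:125084334-125084363, plus strand: tctggctaagagTGACAGccagagtaagag
TGIF1 site 1, chr18:3603967-3603996, minus strand: atgcacgctctcTGACAGcatcgggtcaaa
TGIF1 site 2, chr18:3624051-3624080, plus strand: cctttctgggTGAGTGACAGcatttgagat

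The longer capitals at 4 of these sites are the composite motif, TGATTGACAG at MEIS1 site 2 and MEIS2 site 2 and TGAGTGACAG at PBX4 site 1 and TGIF1 site 2. Both sites with TGATTGACAG lay in the first exon of a MEIS gene.

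MEIS binding sites were found at 8 of the 9 genes, and PBX2 had none. Of all protein-coding genes, 47.8% had at least 1 site by the same rule, so that a site somewhere in so wide a window was common. PKNOX2 had 5 sites and MEIS1 had 3. MEIS2, PBX4, PKNOX1 and TGIF1 had 2 each, and MEIS3 and PBX3 had 1 each. The median was 2 sites per member gene and 0 over all genes. Since long genes have longer windows, each gene was also ranked among the 200 protein-coding genes nearest to it in body length, with genes of equal count sharing a rank.

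PKNOX2 stood highest in this ranking, at percentile 97.75, and 5 of its 200 like genes had at least as many sites. PKNOX1 was at percentile 91.25, MEIS1 at 89.75 and PBX4 at 89.0. TGIF1 stood at 81.5, MEIS2 at 70.5 and MEIS3 at 68.75. With 250 kb windows these 7 genes thus stood above the middle of the genes of their length, and the median over the 9 members was percentile 81.5. With 100 kb windows, PKNOX1 fell to percentile 38.0, TGIF1 to 33.5 and MEIS3 to 39.75, and with 500 kb windows MEIS3 was at 47.5. PBX3 was at percentile 44.25, where 141 of 200 like genes had at least as many sites, and PBX2 at 29.75. With 100 kb windows, PBX3 rose to percentile 62.0, MEIS2 to 83.75 and PBX2 to 40.25.

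**Figure D1:**
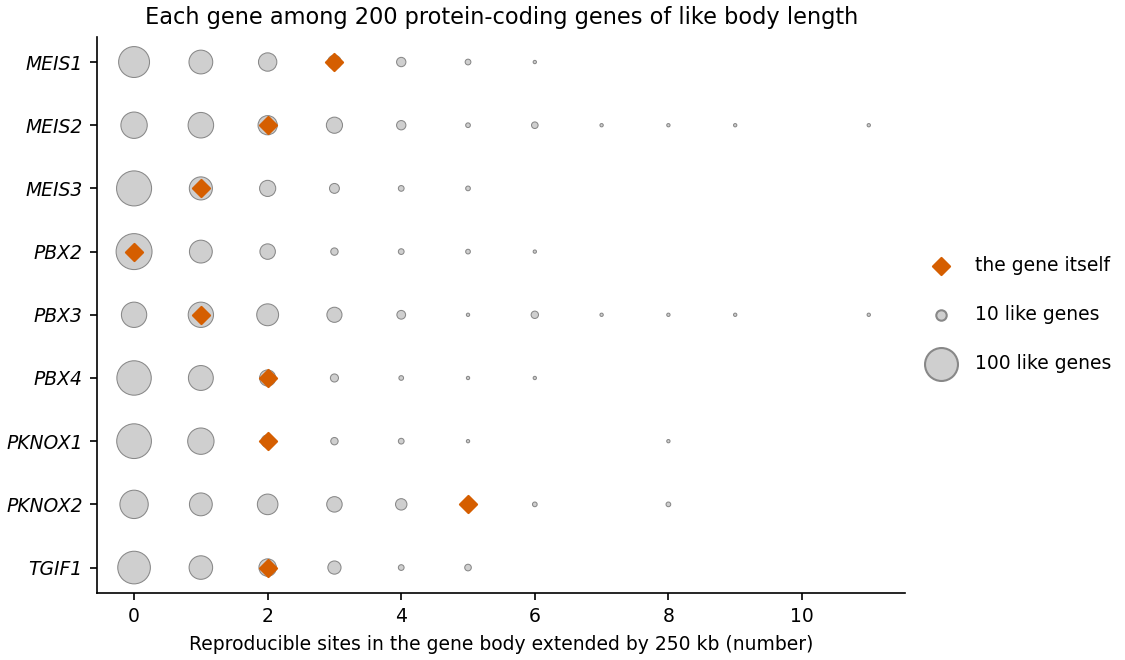
Number of reproducible MEIS sites (horizontal axis) in the window of each gene (rows). The diamond is the gene itself and the area of each grey circle is the number of its 200 like genes with that count. Of the diamonds, that of PKNOX2 lies farthest right, at 5 sites, and that of PBX2 lies at 0.

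Inside gene bodies there were 9 sites, at MEIS1, MEIS2, PBX3 and PKNOX2, while 8.42% of all genes had a site in the body. These are the 4 longest member genes, and of the 200 genes of like length 18.5% had a body site for MEIS1, 36.0% for MEIS2, 36.5% for PBX3 and 39.0% for PKNOX2. Within 5 kb of the start of the canonical transcript (TSS), MEIS1, MEIS2 and PKNOX2 had a site, against 2.41% of all genes. A member held the nearest canonical TSS to 11 of the 18 sites, which fell to MEIS1, MEIS2, PBX3, PKNOX2 and TGIF1, and 14.1% of all genes were nearest to a site. The other 7 sites lay nearer to the canonical TSS of another gene. PKNOX2 site 3 was one of them, although it lay inside the PKNOX2 body, 161 kb from the FEZ1 TSS and 171 kb from that of PKNOX2. All sites in the MEIS3, PBX4 and PKNOX1 windows were also among the 7, so that for these 3 genes a site in the window was not a site near the gene.

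**Figure D2:**
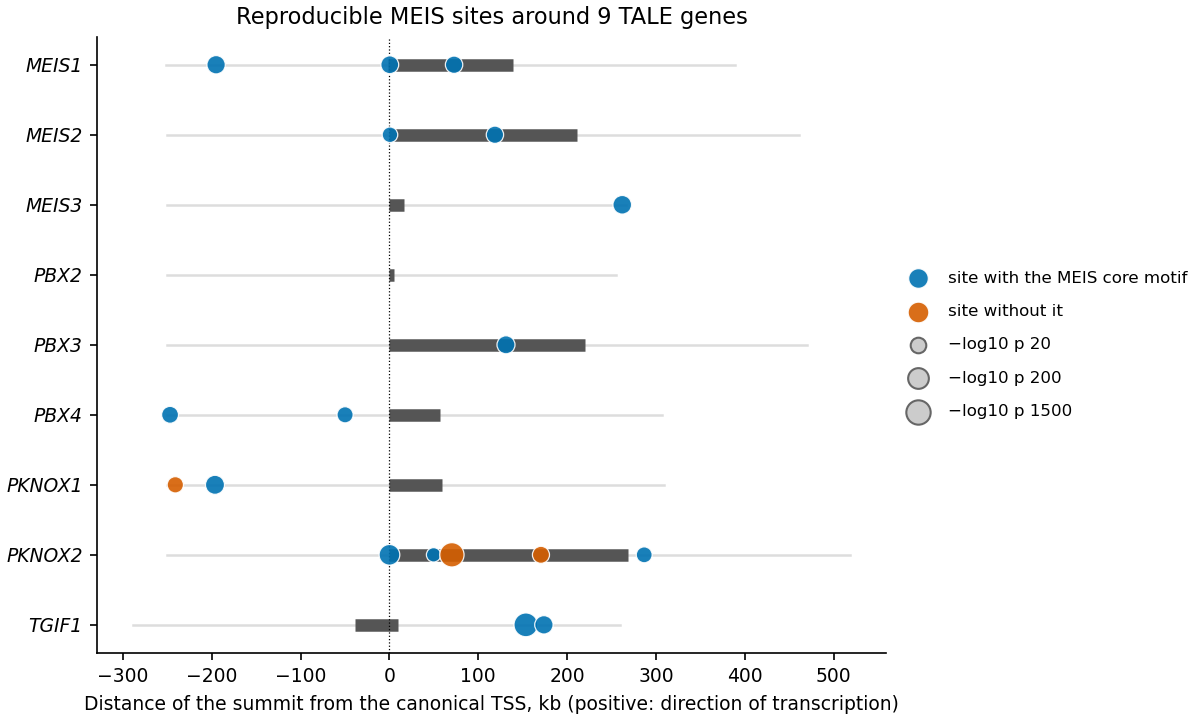
Position of the 18 sites relative to the canonical TSS of each gene, in kb in the direction of transcription. Dark bars are gene bodies, pale lines the extended windows, circle area grows with the log of −log10 p, and colour shows whether the site holds TGACAG. MEIS1, MEIS2 and PKNOX2 have a site at the TSS, whereas the sites of MEIS3, PBX4, PKNOX1 and TGIF1 lie outside their gene bodies.

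The strength of a site was described by the summit's fold enrichment over input and by the −log10 of its p-value, both as the authors' peak caller gave them in each replicate. For each of the 18 sites, the −log10 p in the list of reproducible sites equalled the lower of both replicate values. The median over the 18 was 46.2, against 29.3 over all sites, and 13 of the 18 were in the stronger 50% of the list. In replicate 1 the median fold enrichment was 8.07 (6.38 over all sites), and in replicate 2 it was 13.1 (11.5 over all sites). The higher fold in replicate 2 was shared by the whole list: 17 of the 18 sites (94.4%) and 97.4% of all sites had it. Differences between replicates at one site are therefore read against a median ratio of 1.80 over all sites. At the 18 sites the median ratio was 1.53, with a range of 0.987 to 2.78.

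**Figure D3:**
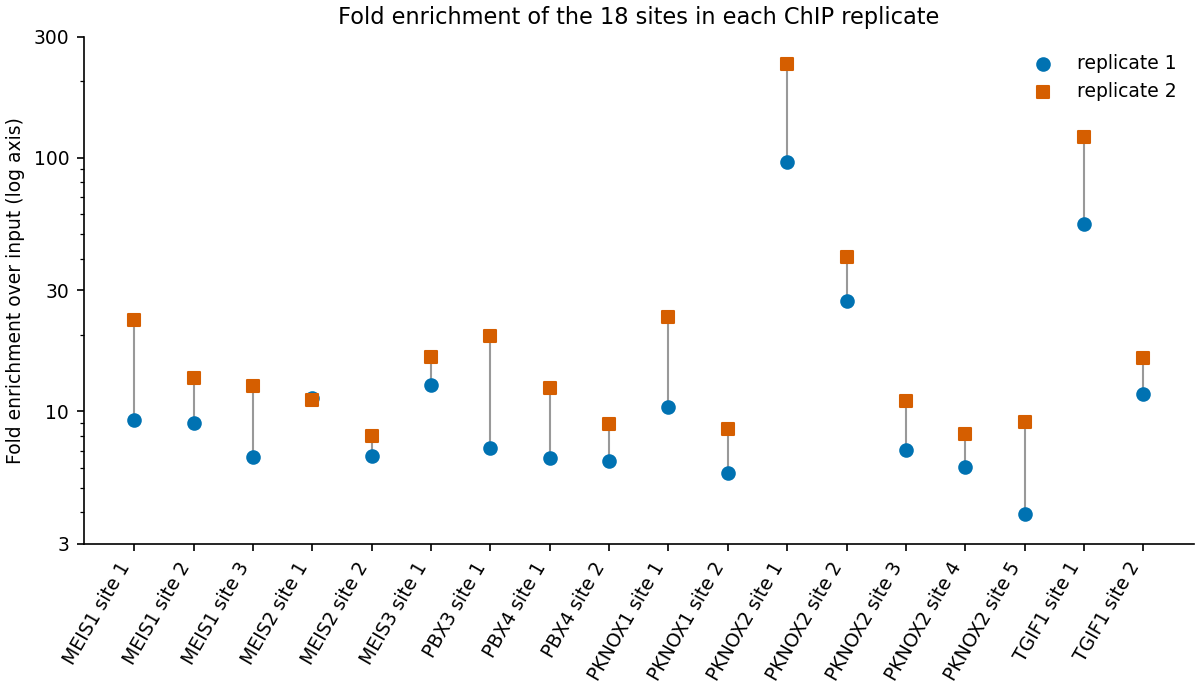
Fold enrichment over input (log axis) of each of the 18 sites in replicate 1 (circles) and replicate 2 (squares), joined by a line. Replicate 2 is higher at every site but MEIS2 site 1, and PKNOX2 site 1 and TGIF1 site 1 stand above the rest in both replicates.

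MEIS1 and MEIS2 encode the proteins that were immunoprecipitated. MEIS1 site 2 (chr2:66662165-66663336) had its summit in the first exon, 341 bp downstream of the TSS and in the 5′ UTR. Its fold enrichment was 9.0 in replicate 1 and 13.5 in replicate 2, and its −log10 p was 51.0 and 51.1. MEIS2 site 2 (chr15:37391849-37392722) also had its summit in the 5′ UTR part of the first exon, 566 bp downstream of the TSS. It was weaker, with fold enrichments of 6.69 and 7.98 and a −log10 p of 31.2 and 19.9, and ranked 3708 of 5169. In both replicates the value of the MEIS1 exon was the higher one.

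Both exons carried the composite motif TGATTGACAG on the strand of the gene. In MEIS1 the motif began 346 bp past the TSS and ended 376 bp before the start codon of the same exon, and in MEIS2 it began 599 bp past the TSS and ended 474 bp before the start codon. The 2 genes were identical over 21 bases from the first base of the motif onward, and this run of 21 bases occurred at no other place on GRCh37 chromosomes 1 to 22, X and Y. Of the 5169 site windows, these 2 held it. Over the 210 bases around the motif, compared without gaps, 49.0% of the bases were identical between the 2 genes. The run was noticed on reading the sequences printed above, after the sites had been chosen.

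The other MEIS1 sites were far from the canonical TSS, although each lay close to another annotated start. MEIS1 site 1 (chr2:66466551-66467865) lay outside protein-coding genes, 195 kb upstream. Its summit was 276 bp from the start of a miRNA gene, and its fold enrichments were 9.27 and 22.8. It was the strongest MEIS1 site, with −log10 p values of 64.3 and 90.8, and no other protein-coding gene lay in the MEIS1 window. MEIS1 site 3 (chr2:66734465-66736016) lay in intron 7, 72.7 kb past the canonical TSS, with fold enrichments of 6.62 and 12.6. Its summit was 1054 bp from the start of another annotated MEIS1 transcript. The stronger MEIS2 site, site 1 (chr15:37273428-37274374), lay in intron 8, 119 kb past the TSS, and held TGACAG at 2 places in its 500 bp window. Its fold enrichment was 11.3 in replicate 1 and 11.1 in replicate 2, the one site of the 18 that was not higher in replicate 2, and its −log10 p was 79.7 and 40.7. The order of the MEIS1 and MEIS2 intronic sites thus differed between the replicates, with MEIS2 higher in replicate 1 by both measures and MEIS1 higher in replicate 2.

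MEIS3, a less studied paralog, had no site in its body or near its TSS. The one site in its window (chr19:47659418-47661297) lay in intron 5 of SAE1, which encodes a subunit of the SUMO-activating enzyme, 262 kb downstream of the MEIS3 TSS and 26.6 kb from that of SAE1. It was strong in both replicates, with fold enrichments of 12.7 and 16.4 and a −log10 p of 96.9 and 72.7. Narrowing the window to 100 kb left MEIS3 with no site.

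PBX proteins are the DNA-binding partners of MEIS. PBX3 had its only site (chr9:128640197-128641426) in intron 2, 131 kb past the TSS. The fold enrichment was 7.14 in replicate 1 and 19.9 in replicate 2, the widest ratio of the 18 sites, and the −log10 p was 55 and 101. Both values were above the median over all sites in each replicate, although with 250 kb windows 1 site was not many for a gene of its length.

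PBX4 had 2 sites, both upstream and at the starts of zinc finger genes. Site 1 (chr19:19976116-19977030) lay 152 bp from the TSS of ZNF253 and 247 kb from that of PBX4, with fold enrichments of 6.55 and 12.4 and the composite TGAGTGACAG. Site 2 (chr19:19779175-19779939) lay 179 bp from the TSS of ZNF101 and 49973 bp from that of PBX4, with fold enrichments of 6.35 and 8.89. Neither gene start was that of a member, and the PBX4 window held 15 other protein-coding genes.

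PBX2 had no reproducible site. Its window was the most gene-dense of the members, with 24 other protein-coding genes, and 40.5% of the 200 genes of like length had a site. The strongest replicate 1 peak in it (chr6:32163293-32164497) had a fold enrichment of 4.06 and a −log10 p of 16.3, lay over coding exon 30 of NOTCH4, 5.62 kb upstream of the PBX2 TSS, and held TGACAG. The overlapping replicate 2 peak had a fold enrichment of 2.75 and a −log10 p of 3.38. The strongest replicate 2 peak (chr6:32097900-32098559) lay in the 5′ UTR of the first exon of FKBPL, 59.9 kb from the PBX2 TSS, with a fold enrichment of 5.66 and a −log10 p of 12.5, while the overlapping replicate 1 peak had 2.45 and 4.50. Each of these peaks was thus seen in both replicates and was weak in one of them.

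PKNOX1 and PKNOX2 bind PBX as MEIS proteins do. The 5 PKNOX2 sites covered the widest range of the members, from rank 7 to rank 5122 of 5169. Site 1 (chr11:125103148-125105787) had fold enrichments of 96.0 and 233 and a −log10 p of 1481 and 1906 in replicates 1 and 2. Its summit lay in intron 1, 70.3 kb past the TSS and 3 bp before exon 2, a noncoding exon of 71 bp. Site 2 (chr11:125032038-125034970) was at the promoter, with its summit 6 bp upstream of the TSS, and ranked 311. Its fold enrichments were 27.1 and 40.7 and its −log10 p was 277 and 197. The 2 strongest PKNOX2 sites therefore had their summits beside the first and the second exon of the gene. Both sites were far wider, at 2640 and 2933 bp, than these exons of 71 and 26 bp, and peak lists do not show why a summit lies where it does, so the source of the enrichment at these exons was not tested.

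The sites at exons 1 and 2 of PKNOX2 differed in sequence. At site 2, where 67.2% of the 500 bases were G or C, 5 bases separated the end of exon 1 from the core TGACAG, which was centred 39.5 bp from the summit. At site 1 the whole site of 2640 bp held 2 copies of TGACAG, but neither lay in the 500 bp around the summit. Those 500 bp held 1 copy of the shorter TGACA. The related string TGATTG occurred there once, just past exon 2 and 87.5 bp from the summit, and is shown in capitals because it is the nearest match to the start of the composite at the strongest of the 18 sites.
PKNOX2 site 1, chr11:125105011-125105040, plus strand: tgtaagtaacttTGATTGgcgttttccatg

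A summit in or within 50 bp of an exon of a canonical transcript was found at 5 of the 18 sites (27.8%) and at 2.92% of all sites, and at 1 of the 20 strongest sites, which was PKNOX2 site 1. The other 4 of the 5 were the sites at the first exons of MEIS1, MEIS2 and PKNOX2, and PKNOX1 site 2, whose summit was 19 bp from exon 7 of PDE9A. This distance was computed after the position of the PKNOX2 summits had been seen.

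The remaining PKNOX2 sites were of moderate or low strength. Site 3 (chr11:125204822-125205621) lay in intron 3, held no TGACAG but 1 copy of the shorter TGACA, and had fold enrichments of 7.06 and 11.0. Site 4 (chr11:125321085-125321941) lay in intron 8 of FEZ1, 18.2 kb beyond the end of PKNOX2, with fold enrichments of 6.03 and 8.11. Site 5 (chr11:125083950-125085487) lay in intron 1, held TGACAG at 3 places, and ranked lowest of the 18 in the list, with fold enrichments of 3.94 and 9.07. It was the weakest of the 18 in replicate 1 alone, since 4 of the 18 sites had a lower fold and a lower −log10 p in replicate 2. At PKNOX2 the strongest site thus held no copy of the motif in its window, while the site lowest in the list held 3.

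PKNOX1 had no site in its body. Site 1 (chr21:44197525-44198623) lay 196 kb upstream with fold enrichments of 10.4 and 23.6 and a −log10 p of 87.3 and 105, and the nearest protein-coding TSS, that of WDR4, was 101 kb away. Site 2 (chr21:44152986-44154593) lay in intron 7 of PDE9A, 241 kb upstream, with fold enrichments of 5.73 and 8.51. It held neither TGACAG nor the shorter TGACA. It held 2 copies of CATTCC, the motif of TEAD factors, and 2 matches to the SOX strings ACAAAG or ACAATG.

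Both TGIF1 sites lay downstream of the gene in intron 7 of DLGAP1, which encodes a postsynaptic scaffold protein. Site 1 (chr18:3602289-3605594) ranked 19 of 5169, with fold enrichments of 54.9 and 121 and a −log10 p of 1064 and 1127. Its summit was 154 kb past the TGIF1 TSS and 26 bp from a start of the long noncoding RNA gene DLGAP1-AS2. Site 2 (chr18:3623535-3624831) lay 174 kb past the TGIF1 TSS, held the composite TGAGTGACAG, and had fold enrichments of 11.8 and 16.3. TGIF1 had the nearest protein-coding canonical TSS to both, although both lay inside another gene.

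The core TGACAG at TGIF1 site 1 was centred 219.5 bp from the summit, the farthest of the 15 sites that held it. The 200 bases at the summit are therefore shown, with the shorter TGACA in capitals.
TGIF1 site 1, chr18:3603662-3603861, plus strand: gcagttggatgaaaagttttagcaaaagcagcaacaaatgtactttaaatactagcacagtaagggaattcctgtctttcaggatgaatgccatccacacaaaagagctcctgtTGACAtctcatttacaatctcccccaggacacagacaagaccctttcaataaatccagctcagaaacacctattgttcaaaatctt

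Across the 18 sites, TGACAG was present at 83.3% (Wilson 95% interval 60.8 to 94.2), against 58.3% of all sites, with both strands searched in 500 bp windows. The interval covers the small number of sites alone. At the other 14 sites with the motif, its nearest copy was centred within 50 bp of the summit, so that 93.3% of the 15 and 67.8% of all sites with the motif had it there. The median distance was 9.5 bp at the 15 and 15.5 bp over all. The composite motif, which contains TGACAG, was at 22.2% (9.0 to 45.2), against 4.93% of all sites. The inverted repeat TGACAGCTGTCA was at 0 of the 18 sites (Wilson 95% interval up to 17.6%) and at 0.135% of all sites.

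Strings of other factors were searched in the same windows. CATTCC, the TEAD motif, was at 33.3% of the 18 and 38.2% of all sites, and the SOX strings ACAAAG or ACAATG at 61.1% and 71.0%. TGATTG, which overlaps the composite, was at 55.6% (33.7 to 75.4) and 28.2%, and TGACA, which is part of TGACAG, at 94.4% and 90.9%. The searches for TGATTG and TGACA were added after the sequences had been read. These matches describe letters in a window and were not tested as binding sites.

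**Figure D4:**
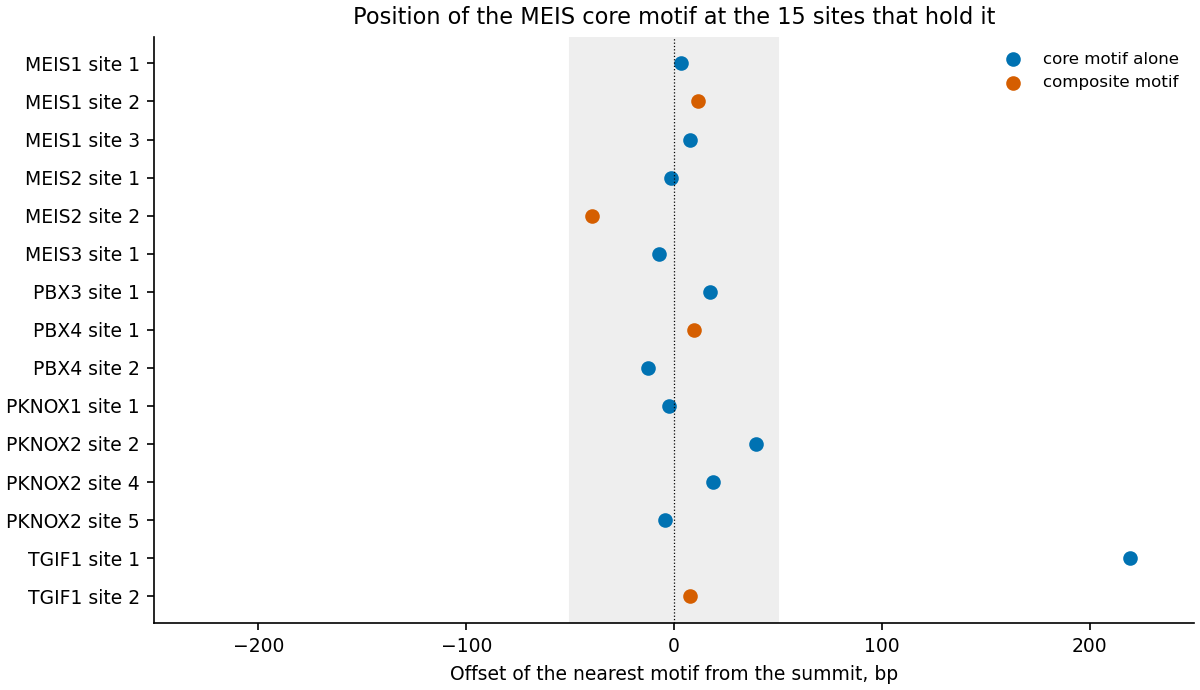
Offset in bp from the summit to the centre of the nearest TGACAG (horizontal axis) at the 15 sites that hold it (rows), with the 4 sites of the composite motif in a second colour and 50 bp on either side of the summit shaded. All but TGIF1 site 1 lie in the shaded range.

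The 18 sites were also described by further measures. Since each site was chosen for lying in or within 250 kb of a protein-coding gene, its distance to a TSS was in part set by that rule. The interval between the summits of both replicates had a median of 10.5 bp (range 1 to 51), close to the 11 bp over all sites. An irreproducible discovery rate (IDR), the expected share of sites whose rank does not hold up between replicates, of at most 0.001 was given to 72.2% of the 18 and to 60.4% of all sites. Member sites were within 5 kb of any annotated TSS in 66.7% of cases and within 5 kb of a canonical TSS in 27.8%, against 29.0% and 8.43% of all sites. Their median GC content was 46.5%, against 42.0%. The part of promoter position and GC content in the motif and strength values was not tested.

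The replicate peak lists were called at a loose threshold, so weaker signals at the same genes could be read from them. Of the 9 genes, 6 had a replicate 1 peak within 5 kb of the canonical TSS (26.9% of all genes), 5 had a replicate 2 peak (27.0%), and 5 had both (15.9%). Beside MEIS1, MEIS2 and PKNOX2, these were PBX3 and TGIF1 in both replicates and PKNOX1 in replicate 1. No peak of either replicate lay within 5 kb of the TSS of MEIS3, PBX2 or PBX4.

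At PBX3, peaks of both replicates overlapped at 2 places around the promoter. The first had its summit 1110 bp upstream of the TSS in replicate 1, with a fold enrichment of 3.57, and 1126 bp upstream in replicate 2, with 4.83. The second lay in intron 2, which also holds the listed PBX3 site, 3869 bp and 3882 bp past the TSS, with fold enrichments of 3.42 and 3.86. TGACAG was present at both places, and neither place was in the list of reproducible sites.

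At TGIF1 there were 5 peaks in replicate 1, with fold enrichments from 2.20 to 4.10, and 3 in replicate 2, from 3.48 to 4.68. The strongest in replicate 1 lay 1949 bp upstream of the TSS and held no TGACAG. At PKNOX1 a replicate 1 peak had its summit 62 bp past the TSS in the 5′ UTR of the first exon, with a fold enrichment of 4.23, a −log10 p of 13.8 and one TGACAG, and no replicate 2 peak overlapped it. Fold enrichments at all these promoters were below those of the 18 listed sites in the same replicate, except that the PKNOX1 and TGIF1 values of 4.23 and 4.10 exceeded the 3.94 of PKNOX2 site 5 in replicate 1.

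Over the 9 windows together, replicate 1 had 136 peaks and replicate 2 had 161. Of these, 77 in replicate 1 (56.6%, 48.2 to 64.7) and 76 in replicate 2 (47.2%, 39.6 to 54.9) overlapped a peak of the other replicate by at least 1 bp, against 49.0% and 38.0% of all peaks. The mean of both shares was 51.9% ± 6.66 (SD, n = 2). Both shares count the same overlaps, once from each list, so they are not independent and the SD does not measure variation between replicates. A peak of replicate 1 lay in the window of 97.1% of all genes and one of replicate 2 in 98.0%, so members were described by the number of peaks. TGIF1, with 18 and 21 peaks, was at percentiles 99.25 and 97.5 of its like genes, and PKNOX2, with 24 and 26, at 98.0 and 96.25. MEIS3, with 14 and 18 peaks, stood at 92.0 and 94.75, higher than by its 1 site, and PBX2, with 6 and 11, at 48.0 and 69.0. PKNOX2 and TGIF1 also had the most peaks that both replicates shared, 15 in each replicate at PKNOX2 and 13 and 12 at TGIF1.

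**Figure D5:**
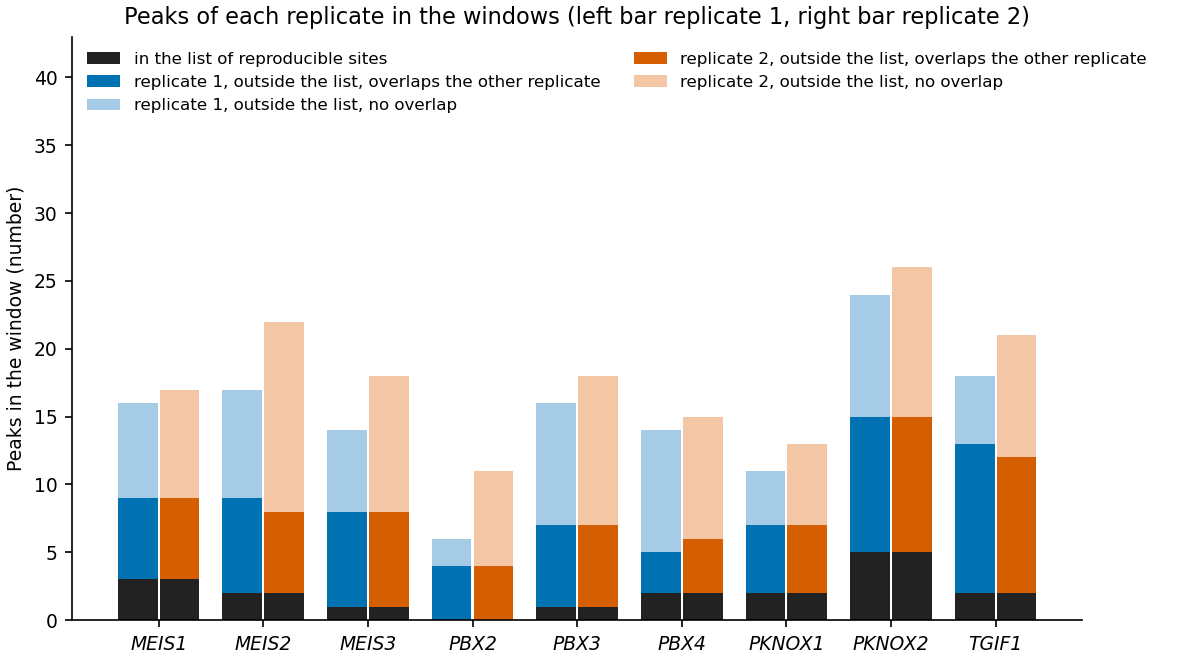
Number of peaks in the window of each gene in replicate 1 (left bar) and replicate 2 (right bar), split into peaks in the list of reproducible sites, peaks outside it that overlap the other replicate, and peaks outside it with no overlap. PKNOX2 has the most peaks and PBX2 the fewest in both replicates.

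Outside the list of reproducible sites, the windows held 118 replicate 1 peaks and 143 replicate 2 peaks. TGACAG was present in 54.2% and 38.5% of them. The share over all unlisted peaks was not determined, so whether these windows differ from the rest of the genome cannot be told. In replicate 2 it was present in 34 of 58 peaks that overlapped replicate 1 (58.6%) and in 21 of 85 that did not (24.7%), and in replicate 1 in 34 of 59 (57.6%) and in 30 of 59 (50.8%). The −log10 p of unlisted peaks reached 24.1 in replicate 1 and 28.8 in replicate 2, above that of PKNOX2 site 5, the lowest of the 18 in the list, in the same replicate.

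Further TALE genes and cofactors were counted in the same way for comparison. Of 15 genes, 11 had a site in the window, 6 of 7 further TALE genes (MKX, IRX1, IRX2, IRX3, IRX4 and IRX6, but not IRX5) and 5 of 8 cofactors (PBXIP1, SMAD3, SKI, SKIL and CRBN, but not SMAD2, CTBP1 or HDAC1), beside the 47.8% of all genes. None of these 15 genes had a site within 5 kb of its TSS, beside 2.41% of all genes. MKX had 1 site and SKI had 2 in the body, beside 8.42% of all genes with at least 1. TGACAG was at 4 of the 9 sites of the further TALE genes and at 5 of the 8 of the cofactors. Of those that belong to TGIF1 biology, SMAD3, a transducer of TGF-beta signals, had 2 sites. The stronger lay 26.6 kb upstream with fold enrichments of 11.1 and 43.3, and the other had 10.4 and 18.5. SKI, a SMAD corepressor, also had 2 sites. The stronger of these lay 43.2 kb past its TSS with 19.9 and 30.0, and the other had 6.55 and 12.7. The 1 site of SKIL had 5.24 and 7.93. All of these sites were weaker than TGIF1 site 1.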

How the data were processed

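ChIP and Input samples were grouped by their titles, 2 each, from 2 batches of cells. Per the labels, the authors trimmed 36 bp paired reads with cutadapt 1.16, mapped them to GRCh37 with bowtie2 2.3.0, discarded alignments of a mapping quality below 30 (samtools 1.2), removed duplicates with Picard 2.15.0, called peaks in each replicate against input with MACS2 (version not given in the sources used here) at a p-value of 0.01, and ran IDR on both lists. Sites in repeats can be missed because of the mapping quality filter. The deposited lists give a fold enrichment over input (a linear ratio), the −log10 of the p-value and of the q-value for each peak, and a −log10 IDR and a scaled IDR score for each site. In the list of sites, 8 columns with values per replicate were not used, and values of a site in a replicate were those of the strongest overlapping peak.

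Here summits were assigned to gene bodies of GENCODE 44 on GRCh37, extended by 250 kb, for 19881 protein-coding genes with a canonical transcript. Letters were searched on both strands. Values were computed with Python 3.11.15, pandas 2.3.3 and pysam 0.24.0 and the procedure was tested on simulated data. Wilson 95% intervals cover the number of sites or peaks alone. With 2 replicates and peak lists alone, shares and percentiles are descriptions and no test was made. The member genes, the further list and the motifs were chosen with earlier results of these data known. All members are named, with the strongest site of each, every site in a body, near a TSS or with the composite motif in full, and for a gene without a site its strongest peak of each replicate. PBX4 site 2, PKNOX1 site 2, PKNOX2 site 4, the promoter peaks outside the list and the examples SMAD3, SKI and SKIL fall outside this rule and were chosen after their values were seen.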

Additional observations from a re-analysis of the deposited data

How the results depend on the processing

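No paired analysis was possible because Input entered only through peak calling, and no groups that share replicate numbers could be compared. Depth is unknown, the n of replicates is 2, and a window says nothing about which gene a site acts on. Of the 18 sites in 250 kb windows, 11 remained with 100 kb, 9 in gene bodies alone, 11 by nearest TSS, 13 at an IDR of at most 0.001, and there were 29 with 500 kb and from 20 to 22 when one replicate's strongest peaks, as many as there are sites, stood in for the list. Genes with a site numbered 5 of 9 with 100 kb, 4 in bodies, 5 by nearest TSS, 9 with 500 kb and 8 with either replicate alone. Of all genes, 8.42% had a site in the body and 14.1% were nearest to one. The share of all genes was not determined with 100 kb, 500 kb or 1 replicate. The median percentile of 81.5 became 80.5 and 84.8 with 100 and 500 like genes, 78.5 with genes of like gene density, 82 at an IDR of at most 0.001, 62 with 100 kb, 75.75 with 500 kb, and from 87.25 to 87.5 with 1 replicate. TGACAG was at 77.8% of sites in 200 bp (46.4% of all sites), 88.9% in 1000 bp (70.1%), 84.6% at an IDR of at most 0.001, and from 77.3% to 80% with 1 replicate. The share of all sites was not determined at that IDR or with 1 replicate. The median −log10 p was 40.7 with 100 kb and from 48.7 to 53.0 with 1 replicate. The overlap of replicate peaks was 40.0% with summits within 100 bp and 73.5% among peaks whose −log10 p was 5 or more. Further genes with a site numbered 5 with 100 kb, 9 at an IDR of at most 0.001, and from 10 to 12 with 1 replicate, all without a share of all genes beside them. Of single genes, MEIS3, PKNOX1 and TGIF1 had 0 sites and PBX4 had 1 with 100 kb, and these 4 had 0 in bodies alone. With 500 kb PBX4 had 5, PKNOX2 had 8, MEIS2 had 4, PBX3 had 2 and PBX2 had 1. Without replicate 2 TGIF1 had 5 and MEIS3 had 2. Where an alternative was not a narrower or wider window, the cause was not tested.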
